A study of Danio rerio with 6 samples.

Results

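The 24 hpf peak and dip were described as the genes whose RNA in whole zebrafish embryos stood higher or lower at 24 h post fertilization (hpf) than at both the stage before it, 10 hpf, and the stage after it, 36 hpf. The gene table held 30111 genes, of which 26043 passed the filter (at least 0.1 RPKM in at least 2 of the 6 libraries) and were tested, and 516 peak genes and 40 dip genes, 556 in all, were found. RPKM are reads per kilobase of exon, scaled by the authors to the reads counted in genes. For each gene, the 24 hpf contrast was the mean of T2 (24 hpf) minus the mean of T1 (10 hpf) and T3 (36 hpf) on the log2(RPKM + 0.5) scale, from one limma fit over all 6 libraries. A peak gene had a contrast above 1, a p below 0.05 after Benjamini-Hochberg adjustment over all tested genes, and both T2 libraries above all 4 libraries of T1 and T3. A dip gene had the same with the sign turned round. The peak or dip was called sharp where T2 differed from T1 and from T3 separately, each past the same fold and adjusted p, and genes were ordered by the smaller of these 2 steps.

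The embryos were wild type (genotype WT) of the AB line, with no transgene and no treatment, and were taken whole at T1 (10 hpf, the end of gastrulation), T2 (24 hpf, about the end of somite formation) and T3 (36 hpf). Each stage had 2 libraries of total RNA depleted of rRNA. The embryos of a stage were divided at random into 2 groups, and whether these were separate clutches is not stated in the sources, so p-values describe how far 2 such libraries differ, a difference that may be purely technical. The libraries held between 43611332 and 51846237 reads in genes, and 3 reads in a gene with 1 kb of exon came to 0.0579 to 0.0688 RPKM. The T1 libraries differed from each other more than those of the later stages did, with 949 genes 2-fold or more apart between its libraries, against 100 genes for T2 and 69 genes for T3. The stage labels went with the marker genes checked. Fast muscle myosin myhz1.1 had 2.13 and 2.44 RPKM at T1, 804 and 931 RPKM at T2 and 3489.9 and 3755 RPKM at T3, and the embryonic globin hbbe3 had 0.587 and 0.141 RPKM at T1, 197 and 158 RPKM at T2 and 251 and 258 RPKM at T3. Fewer cells of a type and less RNA per cell cannot be told apart in RNA of whole embryos, here or in any result that follows.

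In zebrafish, muscle precursors leave the cell cycle, switch on the transcription factor myogenin, fuse into multinucleate fibres and assemble sarcomeres in a wave that runs from the head end of the trunk to the tail during somite formation. Genes of commitment and fusion are used in passing, whereas genes of the contractile apparatus stay on. The embryonic circadian clock is a loop of activators (Clock and Bmal proteins) and of repressors (Period and Cryptochrome proteins) that light can set directly, so that clock gene levels depend on the hour of harvest as well as on age.

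Peak genes outnumbered dip genes. The contrast alone was past the threshold upward for 863 genes (3.31% of those tested) and downward for 125 (0.48%). Both T2 libraries lay above all 4 others for 3590 genes (13.8%) and below them for 1130 (4.34%), without regard to a test. With all conditions together, 516 genes (1.98%) were peak genes and 40 (0.154%) were dip genes, of which 138 (0.53%) were sharp peaks and 11 (0.0422%) sharp dips. The median contrast of all tested genes was 0.05. The median over genes of log2(RPKM + 0.5) was lower in the T1 libraries, 0.96 and 0.82, than in the others, 1.24 to 1.27. Gene by gene, however, the median of T3 minus T1 was -0.0003. How the libraries were scaled moved the split. After centring each library on its median there were 376 peak and 110 dip genes, and after quantile normalization 375 and 79. Median centring moved the median contrast to -0.12.

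The median over peak genes, taken at each stage on its own, was 0.647 RPKM at T1, 5.79 RPKM at T2 and 3.06 RPKM at T3. That T2 lay above the other stages was set by the rule. T3 stood above T1, by the same fold and adjusted p, for 324 of the 516 peak genes, or 62.8%, against 15.9% of all tested genes, and below T1 for 5 (8.55% of all tested genes). The requirement that T2 lie above both stages bears on this comparison, so these are counts and not a test. Among the 138 sharp peak genes T3 was above T1 for 42 and below it for 1, and the remaining 95 had no called difference between the outer stages. The median over sharp peak genes was 0.545 RPKM at T1, 5.01 RPKM at T2 and 1.44 RPKM at T3. Calling a peak gene took no test of T2 against T3 alone, so one that was not sharp need not differ from T3 in limma.

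**Figure D1:**
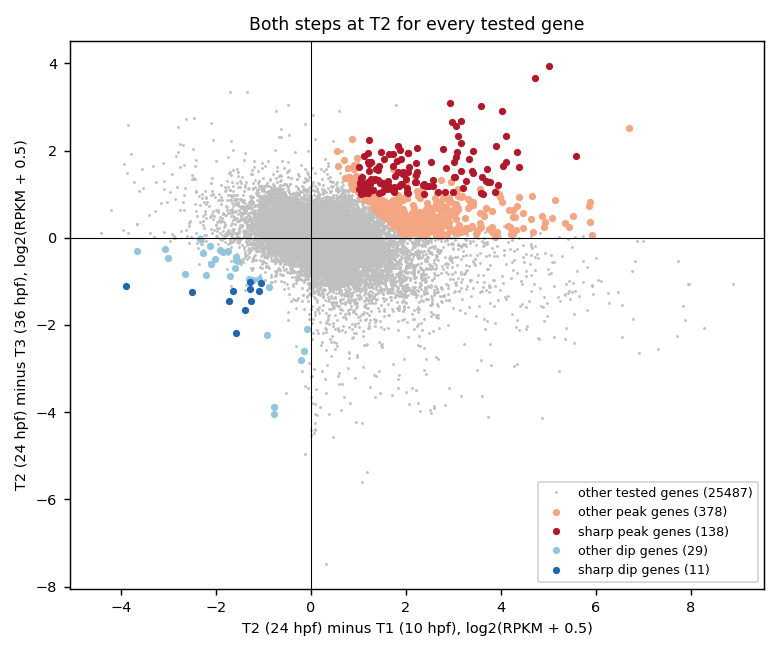
Each point is a tested gene, placed by T2 minus T1 (x axis) and T2 minus T3 (y axis), both on the log2(RPKM + 0.5) scale. The 138 sharp peak genes (dark red) lie in the upper right and the 11 sharp dip genes (dark blue) in the lower left, and most of the other peak genes (light red) lie far right and just above the line of no difference between T2 and T3.

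The number of calls depended on the libraries. Without T2 replicate 1 there were 159 peak and 6 dip genes, without T2 replicate 2 167 and 13, without T3 replicate 1 282 and 16, and without T3 replicate 2 322 and 17, each from a fit with 1 library at the stage concerned. Without T1 replicate 1 there were 671 and 84, and without T1 replicate 2 537 and 53. In every one of these 6 fits 133 of the 516 peak genes and 4 of the 40 dip genes were called. Peak genes were higher in T1 replicate 1 than in T1 replicate 2 in 375 of 516 cases (72.7%), with a median difference of 0.28 on the log2 scale, against 57.0% and 0.05 for all tested genes. Within T2, replicate 1 was above replicate 2 for 309 peak genes (59.9%) and for 104 of the 138 sharp peak genes (75.4%), against 50.1% of all tested genes. The median T2 differences were 0.04, 0.12 and 0.0004 in that order. The part of these differences in the calls was not tested beyond the fits above. An exact permutation of 2 against 4 libraries cannot give a p below 0.0667 for a single gene, so all p-values come from limma, which shares the spread across genes.

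A mixed muscle list gave the largest share among the gene lists used, which together held 84 of the 516 peak genes. Beside genes of commitment and fusion it held myosin chaperone and sarcomere genes. All lists were written with earlier results of these data known, so their shares and their order are counts and not independent evidence. Of 46 gene lists, that of myogenic regulators and myoblast fusion had the largest share of peak genes, 16 of 29 tested members (1.98% of all tested genes were peak genes), 9 of them sharp, with 0 dip genes and a median contrast of 1.24 against 0.05 for all tested genes. The count was 7 without T2 replicate 1 and 8 without T2 replicate 2, and 11 to 16 without any other single library.

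Myogenin (myog, chr11:22596581-22599615 in GRCz11), the transcription factor that drives differentiation of committed myoblasts, had 1.78 and 0.860 RPKM at T1, 16.4 and 14.4 RPKM at T2 and 2.17 and 1.78 RPKM at T3. Both T2 libraries lay far above the others, which overlapped between T1 and T3. The contrast was 2.92 ± 0.22 (SE), adjusted p = 0.00140. The gene of the membrane protein myomaker, which is needed for myoblasts to fuse (tmem8c, named mymk in the RefSeq table), had 0.369 and 0.0731 RPKM at T1, 5.75 and 4.1 RPKM at T2 and 0.172 and 0.0912 RPKM at T3. T3 was back within the range of T1, and the contrast was 3.01 ± 0.22 (SE), adjusted p = 0.00126.

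The second largest sharp peak was LOC100149084, whose identifier carries the symbol mymx in the RefSeq table of a later assembly. In mouse and zebrafish mymx names myomixer, the short fusion partner of myomaker, but the gene model in the files has 34 exons over 111 kb (chr13:48615193-48725878), so its reads may come from more than that gene. It had 3.89 and 1.04 RPKM at T1, 74.0 and 61.7 RPKM at T2 and 4.83 and 4.82 RPKM at T3, and its contrast was 4.19 ± 0.39 (SE), adjusted p = 0.00303. Jam2a, a cell surface protein that myoblasts use to recognize each other before fusion, had 1.37 and 1.34 RPKM at T1, 8.83 and 7.53 RPKM at T2 and 2.12 and 2.12 RPKM at T3. Its partner gene jam3b had 47.0 and 41.6 RPKM at T1, 49.4 and 46.6 RPKM at T2 and 34.8 and 36.3 RPKM at T3, with a contrast of 0.27 that did not pass the test. M-cadherin (cdh15), an adhesion protein of myoblasts, had 0.659 and 0.341 RPKM at T1, 15.7 and 13.1 RPKM at T2 and 2.66 and 3.26 RPKM at T3, and its step above T3 was 2.11 on the log2 scale.

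Other transcription factors of the list were less alike. The MADS-box factor gene mef2d had 15 and 15.7 RPKM at T1, 39.1 and 36.0 RPKM at T2 and 14.9 and 16.5 RPKM at T3, a rise at T2 alone, with a contrast of 1.24 ± 0.08 (SE), adjusted p = 0.000923. Its relatives mef2ca, mef2cb and mef2aa were also peak genes. Of these mef2ca had 3.42 and 1.21 RPKM at T1, 36.8 and 39.0 RPKM at T2 and 17.3 and 18.3 RPKM at T3, and the steps above T3 were 1.07, 0.65 and 0.11 on the log2 scale for mef2ca, mef2cb and mef2aa. The pax7a gene, a factor of muscle and neural crest precursors, and myf6, a late myogenic factor, were peak genes with steps of 0.23 and 0.39 above T3. In limma the adjusted p of T2 against T3 was 0.526 for pax7a, 0.510 for myf6 and 0.0930 for mef2ca. The determination factors myod1 and myf5 were not peak genes. The myod1 gene had 6.46 and 3.08 RPKM at T1, 6.35 and 7.26 RPKM at T2 and 4.45 and 3.88 RPKM at T3, with T2 and T1 overlapping, and myf5 had 21.7 and 16.3 RPKM at T1, 2.49 and 1.88 RPKM at T2 and 2.02 and 2.32 RPKM at T3, highest at T1.

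The same list also held genes of proteins that fold myosin or hold the sarcomere together, which were not counted apart from it. The myosin chaperone hsp90aa1.1 had 223 and 108 RPKM at T1, 603 and 593 RPKM at T2 and 197 and 221 RPKM at T3, with a contrast of 1.73 ± 0.27 (SE), adjusted p = 0.0150. The methyltransferase smyd1b, which works with it in zebrafish muscle, had 35.6 and 35.2 RPKM at T1, 159 and 173 RPKM at T2 and 65.0 and 72.4 RPKM at T3, and the co-chaperone unc45b had 33.4 and 35.7 RPKM at T1, 65.5 and 63.7 RPKM at T2 and 26.6 and 32.9 RPKM at T3. The rule for a peak gene fixes that T2 lies above T3, so only the size of that step is given here. It was 1.52 for hsp90aa1.1, 1.27 for smyd1b and 1.11 for unc45b, and unc45b was not called sharp. The kelch-family genes klhl41a and klhl41b, whose proteins stabilize sarcomere parts, were both sharp, and klhl41b had 7.0 and 4.34 RPKM at T1, 92.7 and 91.4 RPKM at T2 and 38.6 and 40.2 RPKM at T3. The paralogue smyd1a was not a peak gene and had 0.147 and 0.326 RPKM at T1, 7.19 and 8.08 RPKM at T2 and 26.6 and 28.8 RPKM at T3.

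**Figure D2:**
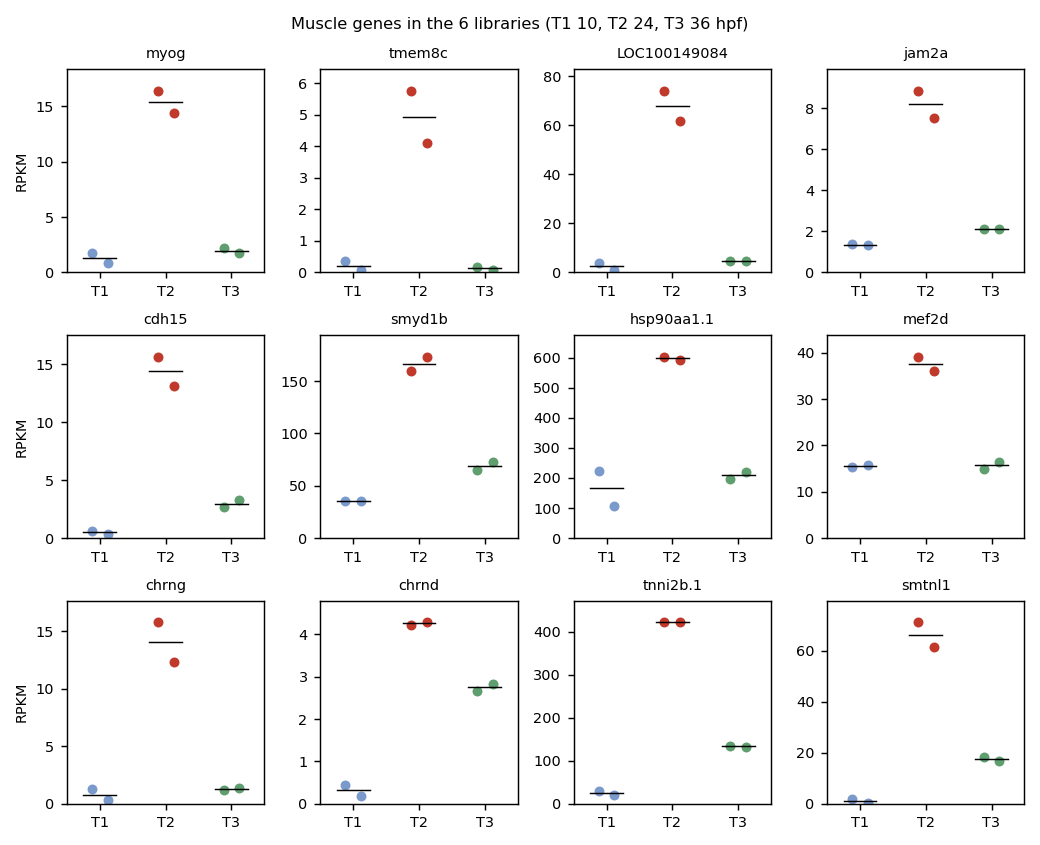
RPKM (y axis, linear from 0) of 12 muscle genes at T1, T2 and T3 (x axis). Each dot is 1 library and each line the mean of 2. For each gene both T2 dots lie above all T1 and T3 dots, as the rule for a peak gene requires. At T3 tmem8c is back at its T1 level and chrnd is at 2.67 and 2.84 RPKM.

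In the acetylcholine receptor of the neuromuscular junction, the fetal-type gamma subunit had a larger step above T3 than the other subunits. The list had 6 peak genes among 18 tested members (1.98% of all tested genes) and 0 dip genes, with a median contrast of 1.08. The gamma subunit gene chrng had 1.26 and 0.342 RPKM at T1, 15.8 and 12.4 RPKM at T2 and 1.21 and 1.34 RPKM at T3, with T1 and T3 overlapping, and its contrast was 3.30 ± 0.30 (SE), adjusted p = 0.00254. The alpha subunit gene chrna1 had 0.419 and 0.273 RPKM at T1, 5.25 and 4.41 RPKM at T2 and 3.73 and 3.70 RPKM at T3. The epsilon subunit gene chrne, whose product replaces gamma in mature junctions of mammals, had 0.0619 and 0.0213 RPKM at T1, 3.83 and 3.93 RPKM at T2 and 3.21 and 3.81 RPKM at T3. The step above T3 was 3.03 on the log2 scale for chrng, 0.55 for the delta subunit chrnd, 0.33 for chrna1, 0.18 for the beta subunit chrnb1, 0.13 for chrne and 0.29 for rapsn, the scaffold that clusters the receptor. The step above T3 passed limma's test for chrng (adjusted p = 0.00437) but not for chrnd, chrna1, chrnb1 and rapsn (0.0813, 0.175, 0.447 and 0.414). The difference between subunits was not tested. Of the subunits chrne was called in every fit that left out 1 library, and chrng was not. The contrast of chrng was 3.13 without T2 replicate 1 and 3.47 without T2 replicate 2. The list's count was 1 without T2 replicate 1, 2 without T2 replicate 2 and 4 to 7 without any other single library. Among the triad genes on the list, stac3 and jph2 were highest at T3.

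Of 35 tested genes of fast muscle fibres 1 was a peak gene (2.86%, against 1.98% of all tested genes) and 1 a dip gene. The list's median contrast was 1.90, with a median step of 4.85 above T1 and of -1.57 against T3. The peak gene was the fast troponin I gene tnni2b.1 with 30.6 and 20.6 RPKM at T1, 421 and 422 RPKM at T2 and 135 and 133 RPKM at T3 and a contrast of 2.85 ± 0.16 (SE), adjusted p = 0.000556. Its neighbour tnni2b.2, 8523 bases away on chromosome 7 (chr7:39387082-39392865, against chr7:39401388-39406765 for tnni2b.1), was the dip gene of the list. It had 1.26 and 1.70 RPKM at T1, 0.640 and 0.649 RPKM at T2 and 18.6 and 18.3 RPKM at T3, with a contrast of -2.41 ± 0.12 (SE), adjusted p = 0.000482. Both T3 libraries were below both T2 libraries for tnni2b.1 and above them for tnni2b.2. Near copies such as these can share reads in counting, which was not tested.

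The slow fibre list had 5 peak genes of 18 tested (smyhc1, tnni1b, ryr1a, myh7bb and myoz2b), against 1.98% of all tested genes. None was sharp, and the list's median contrast was 1.67. Slow myosin smyhc1 had 35.0 and 9.45 RPKM at T1, 342 and 327 RPKM at T2 and 267 and 289.7 RPKM at T3, with a contrast of 2.21 ± 0.47 (SE), adjusted p = 0.0343. Its step above T3 was 0.27, and those of tnni1b, ryr1a, myh7bb and myoz2b were 0.15, 0.17, 0.26 and 0.55 on the log2 scale. In limma none of these 5 steps passed, with adjusted p of 0.767, 0.794, 0.610, 0.469 and 0.0518 in that order. The count was 1 when either T2 library was left out and 2 when either T3 library was. In the heart list 4 of 20 were peak genes (1.98% of all tested genes). For 4 others both T2 libraries lay below the rest (4.34% of all tested genes). The peak genes were all of the contractile apparatus of the embryonic heart: the myosin light chain genes myl7 and cmlc1, the ventricular myosin vmhc and the cardiac troponin T tnnt2a. The ventricular gene vmhc had 0.218 and 0.0479 RPKM at T1, 28.3 and 28.4 RPKM at T2 and 20.3 and 19.6 RPKM at T3, and T2 exceeded T3 by 0.49 on the log2 scale. Limma's adjusted p of T2 against T3 was 0.0676 for vmhc, 0.653 for tnnt2a, 0.101 for cmlc1 and 0.164 for myl7. The list's median contrast was -0.37, and 3 to 5 of its genes were called when 1 library was left out.

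Of the 15 largest sharp peaks with at least 5 RPKM in both T2 libraries, chrng, myog, cdh15 and LOC100149084 are given above. The smoothelin-like gene smtnl1 had 1.71 and 0.358 RPKM at T1, 71.1 and 61.5 RPKM at T2 and 18.3 and 17.0 RPKM at T3, and mss51, a gene of muscle mitochondria in mammals, had 6.03 and 1.84 RPKM at T1, 35.9 and 29.0 RPKM at T2 and 7.12 and 8.83 RPKM at T3. Its neighbour LOC101882154 on the opposite strand, 3568 bases away, had 6.60 and 2.83 RPKM at T1, 41.1 and 38.9 RPKM at T2 and 10.2 and 11 RPKM at T3. In each of these genes T1 replicate 1 lay above T1 replicate 2. The cysteine-rich LIM protein gene crip2 had 1.83 and 1.14 RPKM at T1, 13.7 and 12.3 RPKM at T2 and 2.49 and 3.14 RPKM at T3. The globin-family gene cygb1 had 3.93 and 1.35 RPKM at T1, 31.6 and 28.5 RPKM at T2 and 7.05 and 7.40 RPKM at T3. On the list of genes picked for qPCR and knockout panels, smtnl1, mef2ca, myog, pax7a and myf6 were peak genes. There were 29 tested genes on that list, and 1.98% of all tested genes were peak genes. Its qPCR genes, smtnl1 among them, were picked from genes called on these samples, so for them the count is not independent evidence.

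The remaining 6 largest sharp peaks were of other or unknown function. LOC101882092 (chr4:16444600-16451045), of unknown function, had the largest smaller step of all sharp peak genes, with 0.643 and 0.457 RPKM at T1, 39.7 and 28.3 RPKM at T2 and 1.52 and 1.90 RPKM at T3. The lower T2 library had 28.3 RPKM and no other library had more than 1.90 RPKM, and the contrast was 4.49 ± 0.17 (SE), adjusted p = 0.000308. LOC101884302 had 0.548 and 0.106 RPKM at T1, 13.1 and 11.9 RPKM at T2 and 1.13 and 1.36 RPKM at T3, and LOC556668 had 3.35 and 0.905 RPKM at T1, 20.2 and 17.4 RPKM at T2 and 2.66 and 2.86 RPKM at T3. In each, both T2 libraries lay above the other 4, as the rule for a peak gene requires. The tubby-family gene tulp1b, known from photoreceptors of mammals, had 0.0874 and 0.126 RPKM at T1, 11.2 and 8.97 RPKM at T2 and 1.91 and 1.31 RPKM at T3. The cytochrome P450 gene cyp4t8 had 0.125 and 0.136 RPKM at T1, 12.3 and 12.2 RPKM at T2 and 2.7 and 2.76 RPKM at T3. The period gene per1b is given with the clock.

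Of 38 tested circadian genes 9 were peak genes at 24 hpf (1.98% of all tested genes), per1b and per3 sharply, 0 were dip genes, and both T2 libraries lay above all others for 16 (13.8% of all tested genes). The median contrast of the list was 0.41. Per1b (chr7:50822465-50846291) had 0.639 and 0.313 RPKM at T1, 8.36 and 5.86 RPKM at T2 and 0.640 and 0.763 RPKM at T3, with T1 and T3 nearly level, and a contrast of 2.80 ± 0.20 (SE), adjusted p = 0.00122. Per3 had 8.41 and 8.54 RPKM at T1, 21.9 and 19.6 RPKM at T2 and 8.25 and 7.90 RPKM at T3, with a contrast of 1.28 ± 0.08 (SE), adjusted p = 0.000895. T1 and T3 lay close together, and both T2 libraries were far above them.

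The light-responsive per2 had 4.07 and 2.98 RPKM at T1, 12.4 and 10.3 RPKM at T2 and 6.15 and 6.18 RPKM at T3, and cry1aa, a repressor that light induces in zebrafish, had 1.75 and 1.07 RPKM at T1, 5.20 and 4.90 RPKM at T2 and 2.43 and 2.84 RPKM at T3. The nuclear receptor gene nr1d1 (Rev-erb alpha), which represses the Bmal genes, had 0.993 and 1.63 RPKM at T1, 2.89 and 2.82 RPKM at T2 and 0.768 and 0.509 RPKM at T3. The output factor gene tefa had 12.8 and 9.72 RPKM at T1, 21.1 and 18.8 RPKM at T2 and 6.91 and 7.54 RPKM at T3, and it was lower at T3 than at T1 in every library. Cry5, which belongs to the light-dependent DNA repair enzymes, ciarta and bhlhe40, both repressors, had contrasts of 1.07, 1.14 and 1.22. The contrasts of the activator genes clocka, arntl1a, arntl1b and arntl2 were 0.01, -0.02, 0.49 and -0.05, and none passed the test. Another period gene, per1a, had 0.0896 and 0.115 RPKM at T1, 0.0760 and 0.0540 RPKM at T2 and 0.0754 and 0.136 RPKM at T3 and was not a peak gene.

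The breeding fish were kept in a light and dark cycle, and the light given to the cultured embryos is not stated in the sources. The 24 hpf stage lies a whole day after fertilization whereas 10 and 36 hpf lie at other hours of the day. Stage and hour of the day thus cannot be told apart in these genes. The count of 9 became 2 when either T2 library or T3 replicate 1 was left out, 3 without T3 replicate 2 and 8 when either T1 library was left out, and it was 6 after median centring. Per1b and per3 were called in all 6 fits that left out a library.

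**Figure D3:**
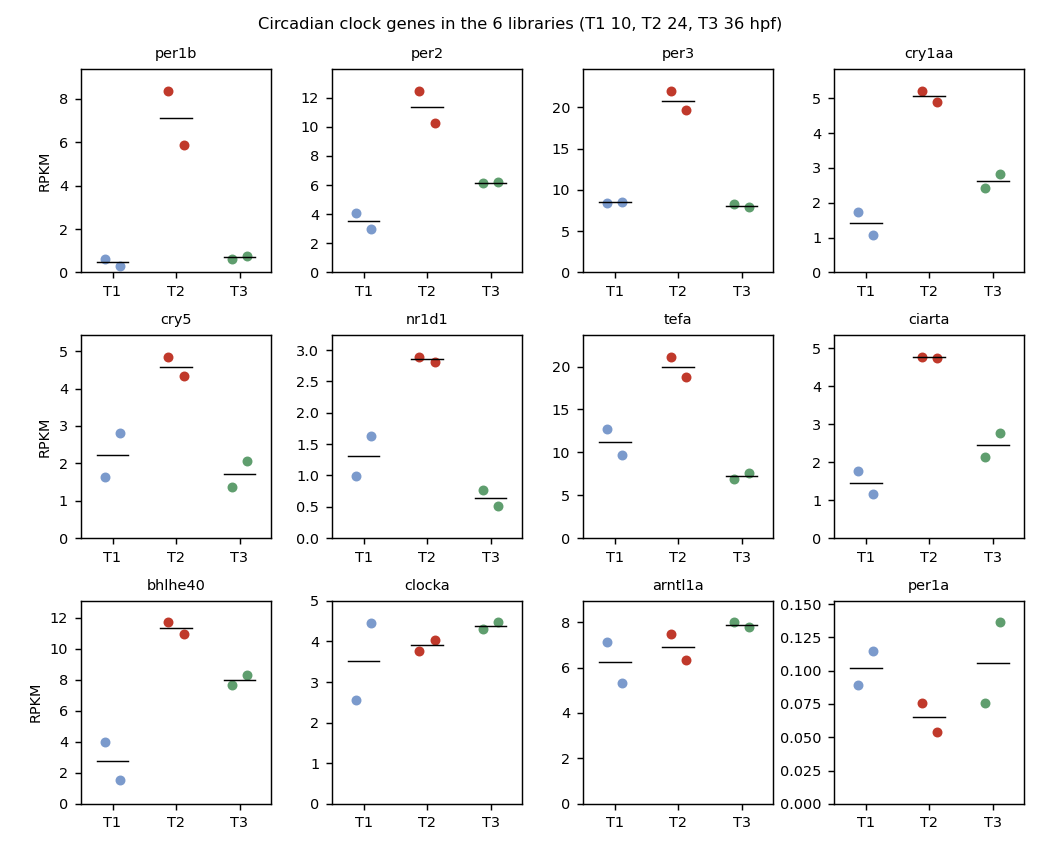
RPKM (y axis, linear from 0) of 12 circadian genes at T1, T2 and T3 (x axis). Each dot is 1 library and each line the mean of 2. The first 9 panels are the peak genes, from per1b to bhlhe40. The activators clocka and arntl1a and the gene per1a are shown as members that were not called.

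Beyond muscle and clock, single tissues gave small groups. Of 27 tested blood vessel genes 6 were peak genes (fli1b, tek, clec14a, she, esama and stab2), against 1.98% of all tested genes, and 0 were dip genes. For 11 of them T2 lay above all other libraries, against 13.8% of all tested genes. The median contrast was 0.73. Tek, the receptor for angiopoietin on vessel walls, was the only sharp one, with 0.283 and 0.0482 RPKM at T1, 2.55 and 1.81 RPKM at T2 and 0.692 and 0.710 RPKM at T3, and the scavenger receptor stab2 of veins had 0.364 and 0.148 RPKM at T1, 5.55 and 5.12 RPKM at T2 and 3.14 and 3.35 RPKM at T3. Without T2 replicate 1 the count was 0, without T2 replicate 2 it was 1, without T3 replicate 1 it was 2, without T3 replicate 2 it was 3 and without T1 replicate 1 it was 9.

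Red blood cell genes were split. The heme synthesis enzyme gene urod had 6.39 and 6.23 RPKM at T1, 26.1 and 22.6 RPKM at T2 and 10.3 and 10.4 RPKM at T3, with a contrast of 1.53 ± 0.09 (SE), adjusted p = 0.000658. The transferrin receptor tfr1a, which brings iron into red cells, had 0.184 and 0.136 RPKM at T1, 6.77 and 5.43 RPKM at T2 and 2.89 and 3.19 RPKM at T3, and the blood factor gene drl had 4.58 and 5.65 RPKM at T1, 10.0 and 7.32 RPKM at T2 and 2.35 and 1.97 RPKM at T3. Both called members that went the other way, the carbonic anhydrase of red cells, cahz, and the factor gata2a are given with the dip genes. The globins were highest at T3. Of 29 tested members 3 were peak and 2 dip genes, against 1.98% and 0.154% of all tested genes. Both T2 libraries lay above all others for 7 (13.8% of all tested genes). With any single T2 or T3 library left out 2 genes of the list were peak genes.

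In the collagen list, which leaves out part of the family, 6 of 35 tested genes were peak genes, against 1.98% of all tested genes. These were col2a1a, col5a3a, col8a2, col9a1b, col9a2 and col14a1a. The list's median contrast was 0.89, with a median step of 2.34 above T1 and -0.25 against T3. Col2a1a, the main collagen of the notochord sheath and early cartilage, had 35.5 and 17.8 RPKM at T1, 166 and 162 RPKM at T2 and 144 and 157 RPKM at T3, and col5a3a had 9.88 and 2.7 RPKM at T1, 46.2 and 42.1 RPKM at T2 and 18.3 and 17.3 RPKM at T3. For col2a1a limma's adjusted p of T2 against T3 was 0.796, and for col5a3a it was 0.131. The type IV pair col4a3 and col4a4, which lie head to head 266 bases apart on chromosome 15, are not on the list and were both peak genes, with contrasts of 2.06 and 1.59. The list's count of 6 became 1 when any single T2 or T3 library was left out.

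The posterior Hox genes, which pattern the tail, gave all 4 peak genes among 49 tested Hox genes (1.98% of all tested genes). Hoxc13a had 0.0789 and 0.0190 RPKM at T1, 4.06 and 3.41 RPKM at T2 and 1.85 and 1.91 RPKM at T3. Its neighbour hoxc12a had 0.198 and 0.239 RPKM at T1, 5.29 and 5.19 RPKM at T2 and 3.35 and 3.65 RPKM at T3, and hoxc12b and hoxa13a had contrasts of 1.40 and 1.62 and steps above T3 of 0.45 and 0.69. The T2 libraries lay above all others for 19 of the 49 Hox genes (13.8% of all tested genes), and the list's median contrast was 0.28. Without T2 replicate 1 the count of Hox peak genes was 2, and 4 to 6 without any other library.

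In the pronephros list, cdh17, atp1a1a.4, slc12a3 and slc4a2a were peak genes and lhx1a was a dip gene, of 26 tested. Of all tested genes 1.98% were peak and 0.154% dip genes. The count of 4 became 2 when either T2 library was left out. The pump subunit atp1a1a.4 had 0.874 and 0.424 RPKM at T1, 32.6 and 35.5 RPKM at T2 and 23.7 and 29.7 RPKM at T3, and the salt transporter slc12a3 had 0.0242 and 0.0582 RPKM at T1, 2.21 and 2.12 RPKM at T2 and 0.919 and 0.926 RPKM at T3. The hatching gland enzyme gene he2 had 0 and 0.0233 RPKM at T1, 4.25 and 3.97 RPKM at T2 and 0.525 and 0.530 RPKM at T3 and was sharp, whereas he1a and he1b were higher at T3, with 64.5 and 68.6 RPKM of he1a at T3. In the eye list rx1, a gene of retinal precursors, was a peak gene with a contrast of 1.52 and a step above T3 of 0.50, and rx3 and six7 were dip genes. Crestin and mitfa, of neural crest and pigment cells, had contrasts of 1.65 and 2.12 and steps above T3 of 1.57 and 0.81, and the crestin call rests on an adjusted p of 0.0471.

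With 1.98% peak genes among all tested genes, 1 or 2 peak genes do not set a list apart. Several further lists held 1 or 2 peak genes each. Of these the otolith matrix gene oc90 had 15.3 and 12.7 RPKM at T1, 24.7 and 23.9 RPKM at T2 and 8.11 and 7.23 RPKM at T3, and the Nodal antagonist lft2 had 0.178 and 0.687 RPKM at T1, 1.3 and 1.58 RPKM at T2 and 0.0315 and 0.0150 RPKM at T3, with T3 below T1. The fin fold matrix gene frem3, the motile cilia gene dnai2b and the small heat shock gene hspb8 had contrasts of 1.76, 1.28 and 1.72, with steps above T3 of 0.91, 1.04 and 0.79. In the Wnt list 2 of 44 genes were peak genes, the antagonist dkk1a and its receptor kremen1, with contrasts of 1.43 and 1.39 but steps above T3 of 0.56 and 0.04. For kremen1 limma's adjusted p of T2 against T3 was 0.887, and nearly all of the contrast was the difference from T1. The chromatin genes hmga2 and dnmt3aa, 2 of 33 on their list, were alike in this, with contrasts of 1.26 and 1.25, steps above T3 of 0.12 and 0.07 and adjusted p of 0.816 and 0.624 for these steps in limma. In the yolk and liver list 2 of 35 were peak genes, apoa4a and fabp10a, both carriers of lipids, with contrasts of 2.11 and 1.15 and steps above T3 of 1.1 and 0.73. The retinoid receptor rxraa, ctgfa and the somite factor tbx18 had contrasts of 1.04, 1.29 and 1.03 and steps above T3 of 0.60, 0.32 and 0.48.

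**Figure D4:**
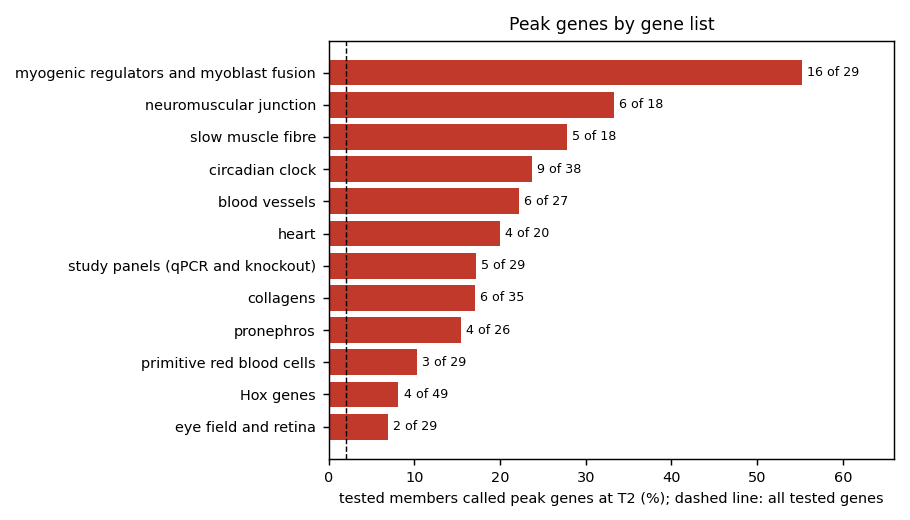
Share of the tested members of a list called peak genes at T2 (x axis, percent), for the 12 lists with at least 4 peak or dip genes, with the counts at the bars. The dashed line is the share among all tested genes, 1.98%, and the list of myogenic regulators and fusion has the longest bar, 16 of 29. The lists were written with earlier results of these data known.

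Of the 46 lists 17 had neither a peak nor a dip gene. They included neurons and synapses, proneural genes, neural progenitors, lens, myeloid cells, epidermis, cell cycle, ribosome biogenesis, oxidative phosphorylation, glycolysis, p53 targets and cholesterol synthesis. These 17 lists held 15 to 75 tested genes each. Among all tested genes 1.98% were peak and 0.154% dip genes, so having no call does not set a list of such a size apart. With limma's unadjusted p below 0.05 in place of the adjusted one, 2 genes of these 17 lists were called, anxa1a and otx2. The cytosolic ribosomal proteins were a case of their own. None of 75 reached the fold of a peak gene. Yet both T2 libraries lay above all 4 others for 73 of 75, against 13.8% of all tested genes. In limma 52 of 75 had an adjusted p below 0.05, a share not set against that of all tested genes. The contrasts were small, between 0.18 and 0.55 with a median of 0.40, and the median level was 365 and 340.4 RPKM at T1, 469 and 474 RPKM at T2 and 353 and 360.0 RPKM at T3. The 2 exceptions were rplp2 and rps26. The median contrast was 0.24 after median centring and 0.33 after quantile normalization, and all 75 stayed above 0 in both. Many of these genes have near copies that can share reads.

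Dip genes were few and of mixed roles. The 3 sharp dip genes with at least 5 RPKM in all T1 and T3 libraries were slc3a2b, cahz and macrod2. None of these 3 was called in every fit that left out a library. Slc3a2b, the heavy chain of amino acid exchangers (chr21:26721339-26725879), had 17.6 and 23.1 RPKM at T1, 5.91 and 6.33 RPKM at T2 and 14.9 and 14.9 RPKM at T3, and its contrast was -1.43 ± 0.12 (SE), adjusted p = 0.00213. As the rule for a dip gene requires, both T2 libraries lay below all others, and the margin was larger against T1. The carbonic anhydrase gene cahz had 7.42 and 11.7 RPKM at T1, 4.05 and 3.13 RPKM at T2 and 8.49 and 8.78 RPKM at T3, with a contrast of -1.22 ± 0.19 (SE), adjusted p = 0.0153. Macrod2, whose product removes ADP-ribose from proteins, had 8.66 and 8.24 RPKM at T1, 3.93 and 3.74 RPKM at T2 and 9.33 and 7.55 RPKM at T3.

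Transcription factors of early patterning were among the other dip genes. Hes6, a Hes-family factor of the presomitic mesoderm and neural precursors, had 22.5 and 26.9 RPKM at T1, 9.71 and 9.62 RPKM at T2 and 18.9 and 19.1 RPKM at T3. It lies within the span of another dip gene, itm2cb, so that reads of the pair may not be separated. Gata2a, a factor of early blood, vessels and ectoderm, had 9.07 and 11.6 RPKM at T1, 1.86 and 1.80 RPKM at T2 and 3.58 and 3.88 RPKM at T3, and gata3 had 27.0 and 41.3 RPKM at T1, 8.03 and 7.68 RPKM at T2 and 11.7 and 10.8 RPKM at T3. In hes6, gata2a and gata3 both T2 libraries lay below the other 4, as the rule for a dip gene requires. Lhx1a, a factor of kidney and axial mesoderm and later of neurons, had 4.1 and 5.93 RPKM at T1, 2.22 and 2.53 RPKM at T2 and 13.2 and 13.0 RPKM at T3, highest at T3. The organizer gene gsc had 0.703 and 2.02 RPKM at T1, 0.0109 and 0.0553 RPKM at T2 and 0.476 and 0.473 RPKM at T3. For six7 and rx3 of the early eye field T1 was far above both later stages: six7 had 4.46 and 8.27 RPKM at T1, 0.0309 and 0.0104 RPKM at T2 and 0.112 and 0.175 RPKM at T3 and rx3 had 10.7 and 26.3 RPKM at T1, 1.54 and 1.56 RPKM at T2 and 2.04 and 1.88 RPKM at T3, and their steps against T3 were -0.30 and -0.26 on the log2 scale. The fibronectin gene fn1b had 75.8 and 59.3 RPKM at T1, 16.8 and 13.6 RPKM at T2 and 23.6 and 22.7 RPKM at T3. In the fkbp5 gene, a co-chaperone of the glucocorticoid receptor named after its values were seen, T3 was by far the highest, with 0.966 and 1.40 RPKM at T1, 0.442 and 0.508 RPKM at T2 and 14.0 and 13.7 RPKM at T3. Klf9, a glucocorticoid-responsive factor also named after its values were seen, had 1.82 and 2.48 RPKM at T1, 0.646 and 0.518 RPKM at T2 and 1.51 and 1.90 RPKM at T3. Without one library at a time 6 to 84 dip genes were called.

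**Figure D5:**
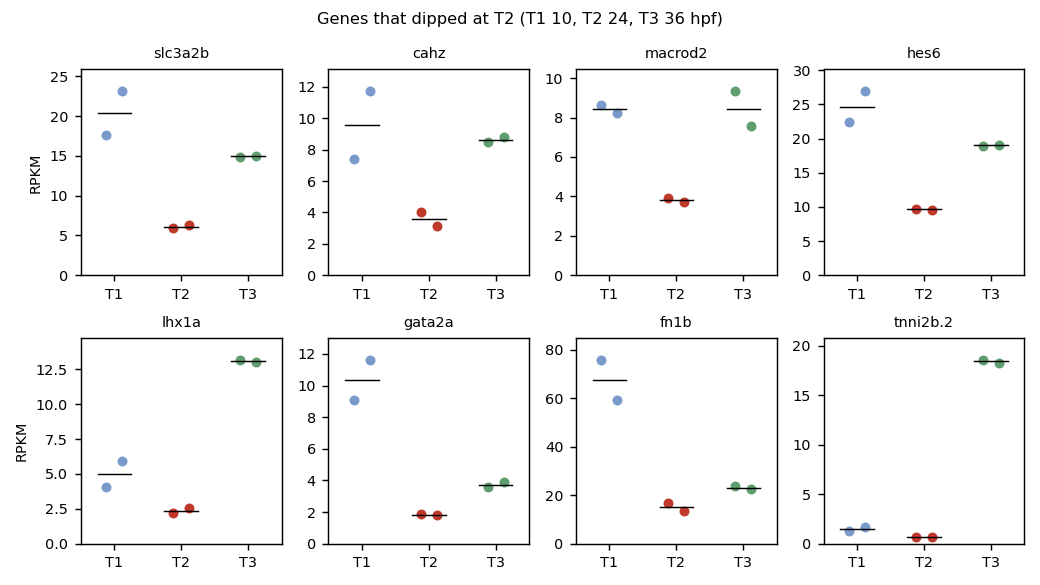
RPKM (y axis, linear from 0) of 8 dip genes at T1, T2 and T3 (x axis). Each dot is 1 library and each line the mean of 2. Cahz and macrod2 come back near their T1 level at T3, slc3a2b, hes6, gata2a and fn1b do so only in part, and lhx1a and tnni2b.2 are highest at T3.

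Annotated lncRNAs were 19 of the 516 peak genes, or 3.68%, against 8.65% of all tested genes. These shares were not matched for level. The median at T2 was 5.79 RPKM for peak genes and 1.86 RPKM for all tested genes. The added 0.5 shrinks log2 differences at low RPKM, and its part here was not tested. In the separate table of lncRNAs, fitted on its own, 103 of 5929 assembled transcripts and 11 of 2252 annotated ones were peak genes, and 3 and 0 were dip genes. In the gene table the same number of annotated lncRNAs, 2252, was tested and 19 were peak genes. Why the separate fit called fewer was not tested. Peak genes were 1.98% of all genes tested in the gene table. The median exon length was 2624.5 bases for peak genes and 2409 for all tested genes.

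Gene pairs named like duplicates peaked together in several cases. Among 2561 pairs of tested genes whose symbols differ only by a final a or b, as is usual for copies kept from the genome duplication of bony fish, 125 pairs had 1 peak gene and 17 had 2. Thus 21.4% of the 159 peak genes in such pairs had a partner that was also one, against 3.10% peak genes among all 5122 genes in pairs. Pair members can share reads where their sequences are close. The pairs with 2 included muscle genes, namely klhl40a and klhl40b, klhl41a and klhl41b, txlnba and txlnbb, trim63a and trim63b, fhod3a and fhod3b, obsl1a and obsl1b, and alpk3a and alpk3b. The kelch pair gave klhl40a 2.1 and 1.04 RPKM at T1, 17.2 and 18.4 RPKM at T2 and 8.34 and 9.51 RPKM at T3, and klhl40b 2.73 and 0.455 RPKM at T1, 27.6 and 26.1 RPKM at T2 and 13.1 and 13.3 RPKM at T3. The rule puts T2 above both other stages, and in both genes the fall at T3 was partial. Htr3a and htr3b, serotonin receptor subunits, lie 4893 bases apart on chromosome 21. The symbol rule thus also took in neighbours that need not be copies from the genome duplication. Htr3a had 0.221 and 0.841 RPKM at T1, 2.68 and 2.87 RPKM at T2 and 0.438 and 0.658 RPKM at T3.

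Neighbouring peak genes within 50 kb of each other formed 45 pairs, 7 of them overlapping, and included hoxc13a with hoxc12a, myom3 with fabp10a and gbp2 with gbp1. Such pairs were not counted among all tested genes, so the count does not show whether peak genes cluster. There were 7 peak genes and 1 dip gene among 216 tested miRNA loci, with few reads. Such loci were 1.36% of peak genes and 0.829% of all tested genes. The hairpin of mir133a-2, one of the muscle miRNAs, had no read at T1, 31 and 19 reads at T2, then 17 and 13 reads at T3. That of mir206-2, another, had 3 and 5 reads at T1, 12 and 10 reads at T2, then 0 and 3 reads at T3, and it overlaps another peak gene, so that its reads may belong to that gene's transcript.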

How the data were processed

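RNA of whole wild-type embryos at 3 stages was measured in 6 libraries, 2 per stage, named by the titles and the stage in the labels. The authors trimmed and aligned the reads with STAR, counted them per gene with featureCounts on GRCz11 and deposited RPKM values for a gene table and an lncRNA table. The kit marked the strand, but the sources do not say whether the counting made use of this, so genes overlapping on opposite strands may not be separated. All gene values came out as whole reads (within 0.01 of a read). No column of values was left without a sample. Of the tested genes 4831 also have exons on alternate sequences, which lengthens their exon length and lowers their RPKM in every library alike. Exons on the chromosome alone give the coordinates.

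From these, log2(RPKM + 0.5) was fitted in R 4.3.3 by limma 3.58.1, with eBayes moderation (trend and robust), stage being the only term and p-values adjusted over all genes tested. The fit was tested on simulated data. Tables and plots used Python 3.11.15, pandas 2.3.3, numpy 2.4.6 and matplotlib 3.10.9. Members, lists and tests were chosen with earlier results of these data known. Symbols on a list that the table lacks were left out. Named were the 15 sharp peak genes with the largest smaller step among those with at least 5 RPKM in both T2 libraries, the sharp dip genes (at most 10) with at least 5 RPKM in all T1 and T3 libraries, in each list up to 5 called members and any called against the rest, and the called genes of the study's panels. Other genes named were chosen after their values were seen. Gene symbols of the RefSeq table are of the GRCz12tu assembly, and 21656 of the 30111 genes matched it. A planned look at promoter motifs was not made. Alternatives were other pseudocounts, filters, scalings, thresholds, variance settings, library weights, a replicate block and single libraries left out. A result for 1 gene that the naming rule covers is not reported here.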

Additional observations from a re-analysis of the deposited data

How the results depend on the processing

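The counts of peak, dip, sharp peak and sharp dip genes were 516, 40, 138 and 11. A pseudocount of 0.1 gave 804, 102, 230 and 37, and one of 1 gave 355, 24, 88 and 5. Median centring gave 376, 110, 104 and 15 and quantile normalization 375, 79, 108 and 18, a share of peaks among calls of 77.4% and 82.6% against 92.8%. A fold threshold of 1.5 gave 1075, 145, 393 and 38, and a log2 threshold of 2 gave 97, 3, 14 and 0. Leaving out 1 library at a time gave 159 to 671 peak, 6 to 84 dip, 31 to 169 sharp peak and 0 to 18 sharp dip genes. Among these, the fewest peak and dip genes came without T2 replicate 1, and a stage then rests on 1 library, assumed to vary like the others. No other setting tried moved any of these counts by more than 1.5 times, and no named gene reversed in any setting. The 90 named genes lost most calls without T2 replicate 1 (62) and without T2 replicate 2 (60). Replicate numbers are shared by the stages but did not pair the libraries: deviations of same-numbered libraries correlated at 0.09, -0.02 and 0.00369 across genes for T1 with T2, T1 with T3 and T2 with T3. With a replicate block the counts were 530, 42, 145 and 11. In a gene with 1 kb of exon, values below 0.0579 to 0.0688 RPKM rest on fewer than 3 reads.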
